A study of Mus musculus with 4 samples.

Results

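The 6 genes described here encode chemokine receptors of myeloid cells: Ccr7, Ccrl2, Ccr1, Ccr2, Cx3cr1 and Cxcr4. They were chosen by name, and their 9 probes were read among 56605 probes, which gave a value for 23451 genes. Chemokine receptors are membrane proteins that couple to G proteins and steer migrating leukocytes along gradients of chemokines. Dendritic cells are antigen-presenting cells, and a known step of their maturation is a change of receptors: those for inflammatory chemokines, which bring precursors into tissue, are exchanged for Ccr7, which leads mature cells to lymph nodes. Ccrl2 is an atypical receptor that presents chemerin and is not known to signal as the others do.

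Femur marrow of C57BL/6J males was cultured with 10 ng/ml GM-CSF in MEM that held 10% FBS, and the cells were used on day 6. GM-CSF is a growth factor under which marrow precursors become a mixed myeloid culture with dendritic cells. RNA was read on 4 single-colour arrays, 1 for each group. The groups were LPS+LA (100 ng/ml LPS with 20 mM LA), LPS (100 ng/ml), LA (20 mM) and Medium, and the treatments lasted 4 h. LPS is a part of the bacterial outer membrane that TLR4 recognises. LA is labelled L-(+)-LA, and the title of the study speaks of lactate. The labels used here give no time for Medium and no pH for LA. All groups are labelled WT, for wild type, and carried GM-CSF.

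There were no replicates, so no difference below has a p-value, and precision is limited by having so few arrays. A level is the log2 signal of a probe minus that of its array's 75th percentile, so levels are compared between arrays and never between probes. Each receptor probe had 1 spot. Its spot error was therefore borrowed from probes of like level that were printed many times on the same array, and it leaves out labelling, culture and animal. A difference was called higher or lower from 1 log2 unit, which is 2-fold, where both arrays had the probe well above background. All 4 arrays lay on 1 slide, and 56.5% to 64.1% of their spots were well above background, with the lowest share on the LPS array. The brightest probe of every receptor was well above background on all 4 arrays.

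The cultures carried markers of several myeloid cell types. Of 17 dendritic cell markers, 16 were well above background with LPS+LA, 15 with LPS, 16 with LA and 16 in Medium. Their summed level, in units of the 75th percentile, was 247, 365, 259 and 323 in the same order. The brightest probes weigh most in such a sum, as Cd74 does here at a level of 6.96 with LPS+LA. Sums are therefore read between arrays, not between lists, and do not measure how many cells of a type were present. Xcr1 was never above background, Clec9a was above it on every array except LPS, and Batf3 was above it on all 4. Of 14 macrophage and monocyte markers, 14, 13, 14 and 14 were above background, with sums of 230, 357, 261 and 339. All 16 neutrophil markers were above background on every array, with sums of 950, 795, 919 and 712. Their sum was lowest in Medium, while their median level was lowest with LPS, at 3.51, 2.65, 3.32 and 2.88 log2 units. Of 13 mast cell, basophil and eosinophil markers, 13, 12, 13 and 12 were above background, with sums of 133, 114, 124 and 69.8. Of 15 lymphocyte and NK cell markers, 12, 9, 13 and 11 were above background, with sums of 9.94, 13.0, 12.2 and 13.7. In such bulk RNA, fewer cells of a type and less RNA per cell cannot be told apart.

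With LPS, Ccr7 and Ccrl2 were higher than in Medium and the other 4 receptors were lower, with a median of -1.43 log2 units. Of the 13592 genes measured there, 8.14% were higher and 7.50% lower, with a median of 0.00. With LA, Cx3cr1 was lower than in Medium and the other 5 were within 2-fold, with a median of -0.34, where 3.12% of 14554 genes were higher and 3.33% lower. With LPS+LA, the brightest probes of all 6 lay within 0.31 log2 units of their level with LA, while the second probe of Cx3cr1 lay 1.31 above it. In that comparison 0.906% of 14903 genes were higher and 1.50% lower, so few genes were called in all. The plot of levels by array shows this for every probe.

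**Figure D1:**
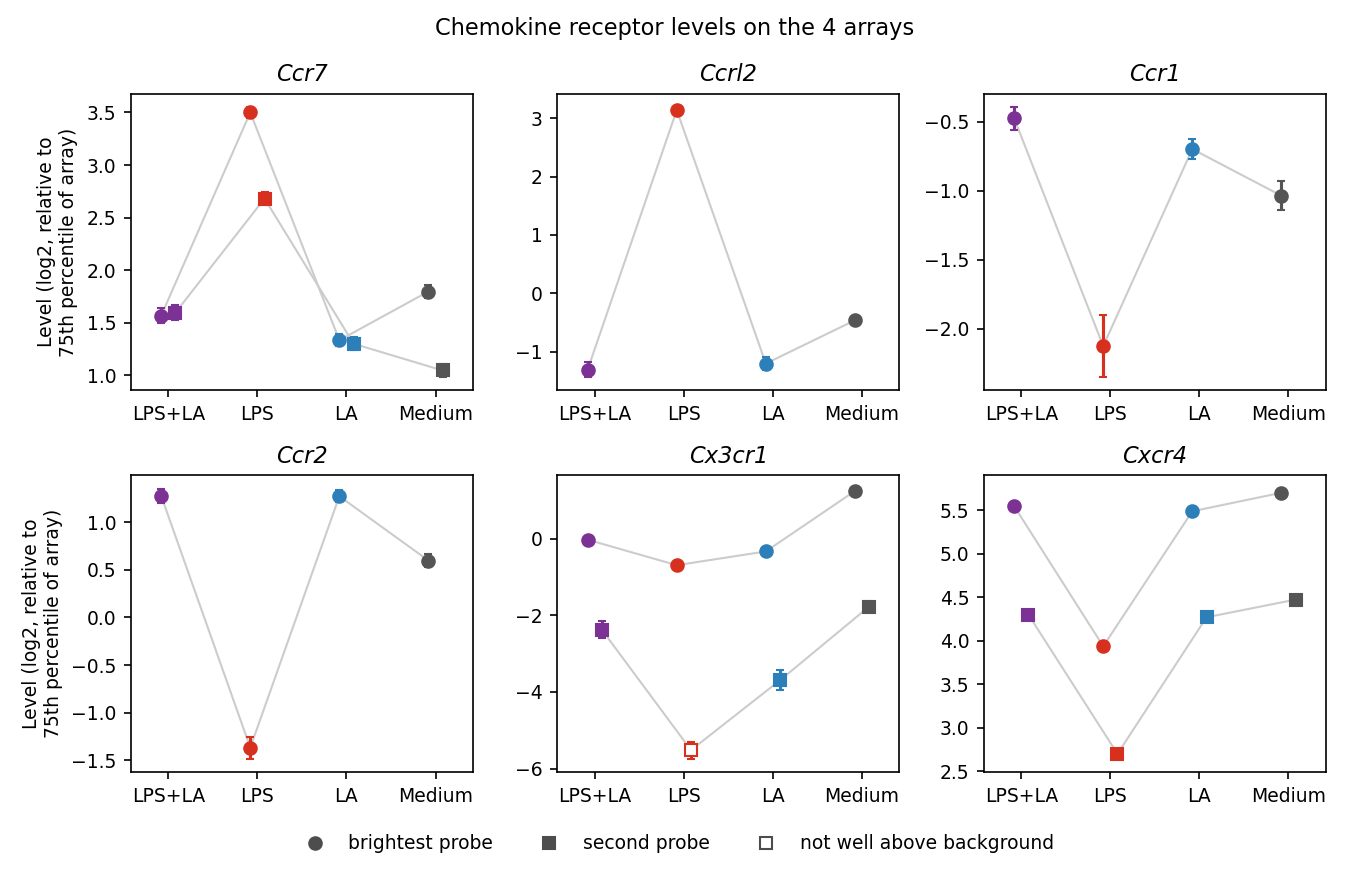
Level of each chemokine receptor (log2, with the array's 75th percentile at 0) on the LPS+LA, LPS, LA and Medium arrays, with the spot error as bars and each panel on its own axis. Circles are the brightest probe and squares the second probe. The LPS array is the highest for Ccr7 and Ccrl2 and the lowest for the other 4 receptors, and the open square of Cx3cr1 was not well above background.

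Ccr7, the receptor for Ccl19 and Ccl21, had levels of 1.57 with LPS+LA, 3.50 with LPS, 1.33 with LA and 1.80 in Medium. The LPS array stood above the other 3, which lay between 1.33 and 1.80. Ccr7 was 3.25-fold higher with LPS than in Medium (1.70 ± 0.079 log2 units, spot error) and 3.82-fold lower with LPS+LA than with LPS (-1.93 ± 0.089). The second probe of the same transcript gave levels of 1.60, 2.68, 1.30 and 1.05 in the order LPS+LA, LPS, LA, Medium. It put LPS 3.11-fold above Medium and LPS+LA 2.12-fold below LPS. The probes differed in sign for LA against Medium, at -0.46 ± 0.083 and 0.25 ± 0.087 log2 units, so no direction is given for that difference.

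Ccrl2 had the widest span of the 6, 4.44 log2 units. Its levels were -1.30 with LPS+LA, 3.14 with LPS, -1.20 with LA and -0.46 in Medium. It was 12.1-fold higher with LPS than in Medium (3.60 ± 0.088), and 21.7-fold lower with LPS+LA than with LPS (-4.44 ± 0.136). Normexp background correction made this last difference -3.55. The LPS+LA and LA arrays lay 0.10 apart, within 2 spot errors, and LA lay 0.74 ± 0.129 below Medium, short of 2-fold.

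The promoter sequence of Ccrl2 is shown because this gene had the largest LPS difference of the 6. RefSeq (GRCm38.p6) places the 250 bases before the most upstream of its 3 starts at chr9:111057519-111057768, minus strand. Capitals mark CACGT, the reverse complement of ACGTG, followed by GGACTTTCC, a letter run of kappa B sites, and by matches to a loose kappa B pattern (GGG, any 5 bases, CC) on either strand.
Ccrl2: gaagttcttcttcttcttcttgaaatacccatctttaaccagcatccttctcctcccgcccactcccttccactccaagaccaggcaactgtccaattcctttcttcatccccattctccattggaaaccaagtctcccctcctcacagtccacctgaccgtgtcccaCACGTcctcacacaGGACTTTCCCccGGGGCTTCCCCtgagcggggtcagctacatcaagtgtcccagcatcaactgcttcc
The first 2 runs begin 82 and 68 bases before the start. The loose pattern matched at 68, 56 and 55 bases, where the last 2 overlap each other and the first covers GGACTTTCC. Of 32851 promoter windows of the same length, searched on both strands, 45.8% held the loose pattern, 16.6% ACGTG and 0.283% GGACTTTCC. GGACTTTCC was searched for after the sequence had been read. The windows of the other 2 Ccrl2 starts held 0 matches to either kappa B pattern, and the promoters of Ccr1 and Cx3cr1, both lower with LPS, held 1 match each to the loose one. These matches describe letters only, and binding was not measured.

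Ccr2, the receptor for Ccl2 through which monocytes leave the marrow, had levels of 1.28 with LPS+LA, -1.37 with LPS, 1.27 with LA and 0.60 in Medium. The LPS array was the lowest, and LPS+LA and LA could not be separated, with a gap of 0.00 ± 0.097. Ccr2 was 3.90-fold lower with LPS than in Medium (-1.96 ± 0.133) and 6.24-fold higher with LPS+LA than with LPS (2.64 ± 0.138). After normexp these differences were -1.28 and 1.84. LA lay 0.67 ± 0.089 above Medium, short of 2-fold.

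Ccr1, a receptor for Ccl3, Ccl5, Ccl6 and Ccl9, had levels of -0.48 with LPS+LA, -2.13 with LPS, -0.70 with LA and -1.04 in Medium. The LPS array was again the lowest, and its signal of 39.8 intensity units carried the largest spot error of the 4 arrays. Ccr1 was 2.13-fold lower with LPS than in Medium (-1.09 ± 0.247) and 3.14-fold higher with LPS+LA than with LPS (1.65 ± 0.238). Neither difference reached 2-fold after normexp, at -0.54 and 0.96.

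Cx3cr1, the fractalkine receptor of monocytes and their descendants, was the only one of the 6 called lower with LA. Its levels were -0.03 with LPS+LA, -0.69 with LPS, -0.33 with LA and 1.24 in Medium, so Medium stood above all 3 treated arrays. It was 3.82-fold lower with LPS than in Medium (-1.94 ± 0.113) and 2.98-fold lower with LA than in Medium (-1.58 ± 0.094). LPS+LA lay 0.67 ± 0.124 above LPS, short of 2-fold. The second probe had levels of -2.38 with LPS+LA, -3.69 with LA and -1.77 in Medium, and was not well above background with LPS. On it LA was 3.79-fold lower than Medium, LPS at least 3.31-fold lower than Medium, and LPS+LA at least 2.17-fold higher than LPS. A bound here uses the lowest signal well above background on the dim array. That probe also put LPS+LA 2.48-fold above LA, where the brightest probe gave 0.31 ± 0.107 log2 units. The mean of both probes gave 0.81 for LPS+LA against LA.

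Cxcr4, the receptor for Cxcl12 that holds leukocytes in the marrow, gave 6827 intensity units with LPS+LA, 2663 with LPS, 7112 with LA and 9314 in Medium. Its levels were 5.55, 3.94, 5.49 and 5.70 in that order, with the LPS array alone well below the rest. Cxcr4 was 3.40-fold lower with LPS than in Medium (-1.77 ± 0.067) and 3.06-fold higher with LPS+LA than with LPS (1.61 ± 0.067). Its second probe gave levels of 4.30, 2.70, 4.27 and 4.47, in the same order of arrays. LPS+LA and LA were 0.06 apart on the brightest probe and 0.03 on the second, both within 2 spot errors.

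The Cxcr4 promoter is shown as that of a receptor lower with LPS. RefSeq (GRCm38.p6) places the 250 bases before its start at chr1:128592300-128592549, minus strand. Capitals mark GCGTG, part of the hypoxia-response pattern, and TTTATA with TATAAA, which overlap and are a TATA box read on both strands.
Cxcr4: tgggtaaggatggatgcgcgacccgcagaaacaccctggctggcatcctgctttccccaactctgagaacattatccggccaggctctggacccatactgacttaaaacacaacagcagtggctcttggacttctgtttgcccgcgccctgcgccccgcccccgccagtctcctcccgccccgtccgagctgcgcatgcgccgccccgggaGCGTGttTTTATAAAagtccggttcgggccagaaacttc
GCGTG begins 39 bases before the start, TTTATA 32 and TATAAA 30. Of the 32851 windows, 28.2% held GCGTG and 12.4% held TATAAA on either strand. Binding was not measured.

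On the brightest probes, neighbours in the order of the 4 levels lay more than 2 spot errors apart for Ccr7, Ccr1 and Cx3cr1. For Ccr2, Ccrl2 and Cxcr4 the LPS+LA and LA arrays could not be ordered. The probes of Ccr7 ordered LPS+LA, LA and Medium differently, with LPS highest on both. The plot of differences between arrays shows each receptor in each comparison.

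**Figure D2:**
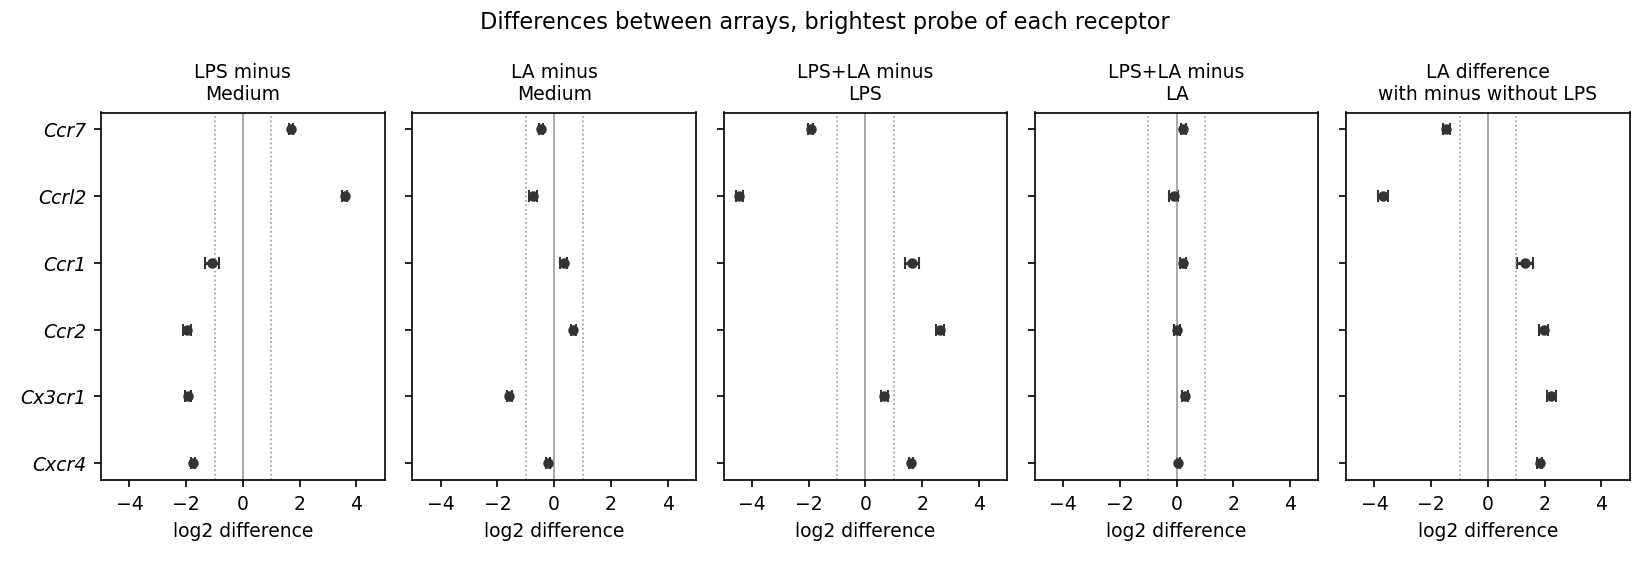
Log2 difference of the brightest probe of each receptor in 5 comparisons, with the spot error as bars and dotted lines at 2-fold. Ccr7 and Ccrl2 lie right of 0 for LPS minus Medium and left of 0 for LPS+LA minus LPS, Ccr1, Ccr2, Cx3cr1 and Cxcr4 lie on the opposite sides, and all 6 lie near 0 for LPS+LA minus LA.

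LPS+LA against LPS called Ccr1, Ccr2 and Cxcr4 higher, Ccr7 and Ccrl2 lower and Cx3cr1 neither. Of 13631 genes, 11.5% were higher and 12.5% lower. This comparison and that of LPS with Medium share the LPS array, so their opposite signs are not 2 independent observations. In the same comparison 9 of the 16 neutrophil markers were higher and 0 lower, with a median of 1.11 log2 units. Of 13 macrophage and monocyte markers 4 were lower and 0 higher. Of 15 dendritic cell markers 6 were lower and 1 higher, with a median of -0.31. Mast cell, basophil and eosinophil markers had 1 lower and 0 higher of 12, and lymphocyte and NK cell markers 1 and 1 of 8. The part of these cell types in the receptor values was not tested. For LPS against Medium the neutrophil markers had a median of -0.21, with 0 higher and 2 lower (8.14% and 7.50% of all genes).

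LPS+LA against LA shares no array with LPS against Medium. It called 0 of the 6 receptors in either direction on their brightest probes, with values between -0.10 and 0.31 and a median of 0.14. Of all 14903 genes measured there, only 0.906% were higher and 1.50% lower, so a count of 0 does not set the receptors apart. The LA difference with LPS minus that without it was 1.31 for Ccr1, 1.97 for Ccr2, 2.24 for Cx3cr1, 1.83 for Cxcr4, -1.47 for Ccr7 and -3.70 for Ccrl2. All 6 passed 2-fold, 4 higher and 2 lower, where 8.97% of 13368 genes were higher and 9.70% lower. The same quantity is LPS+LA against LA minus LPS against Medium. With the first of these near 0, it largely repeats LPS against Medium with the sign turned. It is therefore not a further observation.

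The ligands of these receptors were read on the same arrays. Of 8 measured for LPS against Medium, 4 were higher and 0 lower (8.14% and 7.50% of all genes), with a median of 1.09. Ccl5, bound by Ccr1, had levels of 2.77 with LPS+LA, 7.44 with LPS, 2.42 with LA and 3.13 in Medium. Ccl3, also bound by Ccr1, had levels of 1.98, 5.53, 1.91 and 1.06 in the same order, and Ccl9 had 4.92, 6.99, 5.11 and 5.63. All 3 stood highest on the LPS array, where the level of Ccr1 was lowest.

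Ccl2, the main ligand of Ccr2, differed from them in being higher with LA as well. Its levels were 2.25 with LPS+LA, 3.63 with LPS, 2.48 with LA and -0.40 in Medium, a difference of 4.03 for LPS and 2.88 for LA against Medium. Ccl6 was level across the arrays, at 6.03, 6.13, 6.14 and 6.04 in the order LPS+LA, LPS, LA, Medium. Cx3cl1, the ligand of Cx3cr1, had levels of 0.30, 1.25, 0.19 and 0.44, and no difference from Medium reached 2-fold. Rarres2, which encodes chemerin, was 1.0 log2 unit higher with LPS+LA than with LPS, at -2.07, -3.07, -3.01 and -2.70, a call that median scaling, normexp and quantile normalization each ended. Chemerin's signalling receptor Cmklr1 stayed at 3.67, 3.45, 3.70 and 3.45 while Ccrl2 spanned its 4.44 log2 units.

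For LPS+LA against LPS, 1 of 9 measured ligands was higher and 5 lower (11.5% and 12.5% of all genes), with a median of -1.38. For LA against Medium 1 of 7 was higher and 0 lower (3.12% and 3.33% of all genes). For LPS+LA against LA 0 of 8 passed 2-fold, where 0.906% of all genes were higher and 1.50% lower. Ccl7 and Ccl12, also ligands of Ccr2, are named after their values were seen. Ccl7 was at least 16.5-fold higher with LPS and at least 4.84-fold higher with LA than in Medium, and Ccl12 was well above background with LPS only. The ligands of Ccr7 were dim, Ccl19 above background with LPS+LA only and Ccl21a with LA only.

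**Figure D3:**
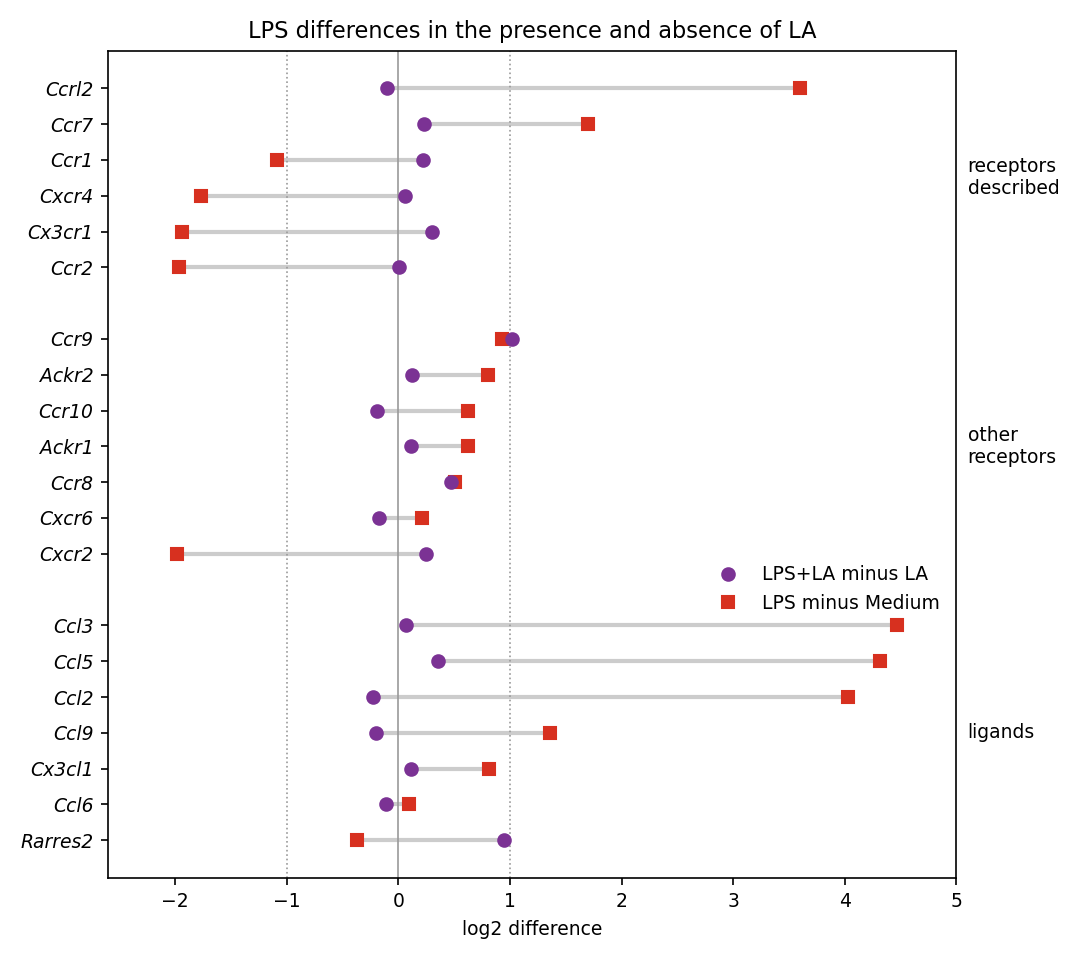
Log2 difference of the 6 receptors, 7 other chemokine receptors and the ligands measured on all 4 arrays, as LPS+LA minus LA (circles) and LPS minus Medium (squares), with dotted lines at 2-fold. The circles of the 6 receptors lie between -0.10 and 0.31 and their squares between -1.96 and 3.60.

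Of 17 other chemokine receptors, 13 were well above background on at least 1 array. For LPS against Medium, 8 were measured, with 0 higher and 1 lower (8.14% and 7.50% of all genes) and a median of 0.56. The list of neutrophil markers holds Cxcr2 too. The lowest was Cxcr2, a neutrophil receptor for Cxcl1 and its relatives, at -1.98, followed by Cxcr6 at 0.21, and the highest were Ccr9, a gut-homing receptor, at 0.93 and Ackr2, a scavenger of inflammatory chemokines, at 0.80. Cxcr2 was thus lower, as were Ccr1, Ccr2, Cx3cr1 and Cxcr4, and the other 7 were within 2-fold. A count of 1 in 8 is near the share of all genes, so it does not set this list apart.

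For LPS+LA against LPS, Cxcr2 was 3.41 log2 units higher and Ccr10, a skin-homing receptor, 1.03 lower, and the median of 8 was -0.46. The next measured values were Ccr9 at 0.25 and Cxcr6 at -0.91. Over all genes 11.5% were higher and 12.5% lower in this comparison. With LA against Medium, Cxcr2 was higher by 1.18 and Ccr6, the receptor for Ccl20, by 1.12. The lowest of 10 measured were Cxcr6 at -0.53 and Ccr8 at -0.45, where 3.12% of all genes were higher and 3.33% lower. For LPS+LA against LA, Ccr9 was higher by 1.02 and 10 of 11 were within 2-fold. There 0.906% of all genes were higher and 1.50% lower. Outside these counts are bounds, named after they were seen. Ccr6 was not well above background with LPS, where it was at least 3.07-fold lower than in Medium, and it was at least 6.43-fold higher with LPS+LA than with LPS. Ackr3, a scavenger of Cxcl12, was well above background in Medium only, and was at least 2.50-fold lower with LA and at least 1.69-fold lower with LPS.

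Genes that mark mature migratory dendritic cells were set beside Ccr7. Of 16 measured, 10 were higher and 0 lower with LPS than in Medium (8.14% and 7.50% of all genes), with a median of 1.31. The highest were Cd40, a costimulatory receptor, at 3.66 and Marcksl1, an actin regulator, at 3.37, and the lowest were Tmem123 at 0.00 and Cacnb3, a calcium channel subunit, at 0.33. With LPS+LA against LPS 11 were lower and 0 higher (12.5% and 11.5% of all genes), with a median of -2.16. The list ran from Cd40 at -4.39 and Marcksl1 at -3.89 to Cacnb3 at -0.23 and Tmem123 at 0.24. Its medians were -0.46 for LA against Medium, with 3 lower (3.33% of all genes), and 0.10 for LPS+LA against LA. In the latter none was called, where only 0.906% of all genes were higher and 1.50% lower. Ccr7 at -1.93 lay inside the range of this list for LPS+LA against LPS. That range also holds the median of all genes, 0.00, so it does not link Ccr7 to the list.

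The genes whose pattern over the 4 arrays was most like that of each receptor were taken from 4360 candidates that were well above background on all 4 arrays. Likeness is the root mean square difference in log2 units between profiles centred on their own mean, so a smaller value means a closer pattern. For Ccr7 they were Aida (0.039), Adap2 (0.048) and Furin (0.055), and for Ccrl2 Ifih1 (0.099), Usp18 (0.126) and Herc6 (0.143). Ifih1, a sensor of viral RNA, Usp18 and Herc6 are known as interferon-induced genes. For Ccr1 they were Mknk2 (0.013), Nin (0.016) and Tgfbr2 (0.031), and for Ccr2 Slc35c2 (0.060), Dna2 (0.074) and Snx30 (0.091). Those nearest to Cx3cr1 were Mrps5 (0.083), Trib3 (0.107) and Mapk1ip1 (0.110), and to Cxcr4 Adamts10 (0.028), Pithd1 (0.035) and Slc9a7 (0.035). The spot error on a single array was 0.073 to 0.223 for Ccr1 and 0.040 to 0.048 for Cxcr4. It was 0.052 to 0.073 for Ccr7 and 0.061 to 0.116 for Ccr2. For Ccrl2 it was 0.053 to 0.125, and for Cx3cr1 0.059 to 0.097. The distances of Ccr1 and Cxcr4 lay below their spot errors, and those of Ccr7 and Ccr2 lay within or below theirs. For Ccrl2 and Cx3cr1 the listed distances differed from each other by less than the lowest spot error. Which genes came first is therefore not settled for any of the receptors. Among the receptors themselves, Ccr1 and Cxcr4 differed by 0.287, Ccr1 and Ccr2 by 0.459, Ccr2 and Cxcr4 by 0.484 and Ccr7 and Ccrl2 by 0.973. Many candidates lay nearer than these. By likeness to the first of each pair, the second ranked 1079, 1739, 456 and 2006. By likeness to the second, the first ranked 471, 383, 1497 and 371.

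**Figure D4:**
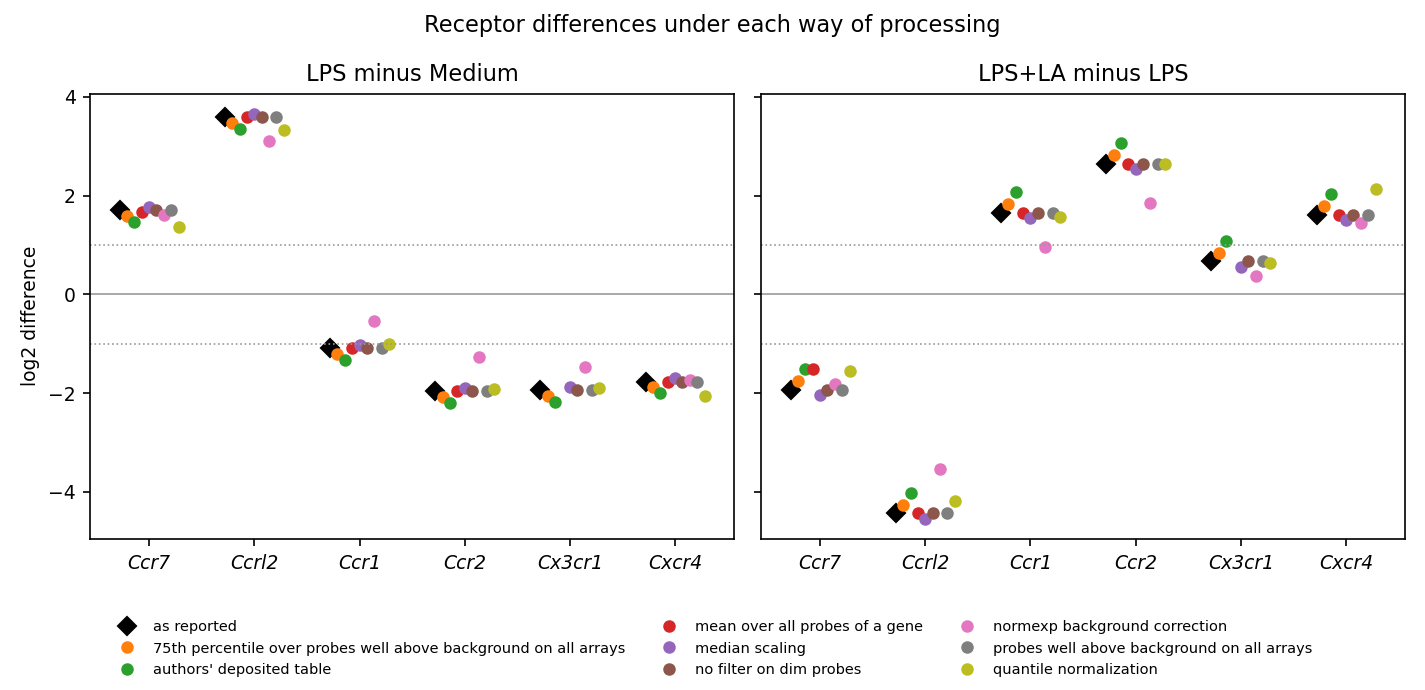
Log2 difference of each receptor for LPS minus Medium and LPS+LA minus LPS as reported (diamonds) and under 8 other ways of processing (circles), with dotted lines at 2-fold. No called value changes sign, Ccr1 falls short of 2-fold in both panels after normexp, and Cx3cr1 passes 2-fold for LPS+LA minus LPS in the authors' deposited table. The probe mean of Cx3cr1 is not drawn, since its second probe was not well above background with LPS.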

How the data were processed

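Spot values are the processed signal as deposited, an intensity that is linear and background-subtracted, made by Agilent Feature Extraction 12.0.3.1 per the file headers (11.5.1.1 per the submitters' processing notes). A second deposited table holds linear, uncentred intensities, found to be that signal multiplied by a constant for each array (9.30 for LPS+LA, 5.82 for LPS, 8.38 for LA and 6.67 for Medium), with column medians of 1189, 873, 1164 and 1038. No direction is open, since each column is a level.

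Levels were computed from the deposited intensity as log2 of the signal minus log2 of the array's 75th percentile (146 for LPS+LA, 174 for LPS, 158 for LA, 179 for Medium) over 59305 spots that were not controls; spots marked as outliers (129 to 154 per array) were left out and 0 were saturated. Transcript identifiers matched 33767 of 56605 probes to 1 RefSeq symbol, 0 to several and 22838 to none. A gene took its brightest probe. The spot error is the median SD of the 30 nearest in level of 300 probes printed 10 times, combined over arrays as a root sum of squares. With 1 array per group no test and no slide block could be fitted. The calculation was run on simulated arrays that copied the Medium array and its background flags, with differences well above the call threshold added. This checks the arithmetic only, not the noise or the background filter of the real arrays.

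The receptors and gene lists were chosen with earlier results of these data known. Named genes are all 6 receptors with every probe, the ligands measured on all 4 arrays, the 2 highest and 2 lowest of a list, and the 3 nearest profiles among genes spanning at least 1 log2 unit; exceptions are marked, and the value of 1 gene is not reported here. RefSeq (GRCm38.p6) gave promoters for 5 of the 6. Normexp (offset 50) was run on the median spot signal, since the mean signal planned for it was not analysed here. Alternatives are given at the end. Python 3.11.15, numpy 2.4.6, pandas 2.3.3, R 4.3.3 and limma 3.58.1 were used.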

Additional observations from a re-analysis of the deposited data

Results flagged for a closer look

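For Cxcr4 and Cx3cr1 the LA difference had opposite signs with and without LPS. Cxcr4 was 1.61 log2 units higher with LPS+LA than with LPS and differed by -0.21 for LA against Medium, which leaves 1.83 between both differences. The value without LPS was short of 2-fold, and it was -0.06 in the authors' deposited table and after quantile normalization, within 1 spot error of 0. On its brightest probe Cx3cr1 was 0.67 higher with LPS+LA than with LPS, short of 2-fold, and differed by -1.58 for LA against Medium, which leaves 2.24. The value with LPS became 1.09 in the authors' deposited table. On the second probe it was at least 2.17-fold higher with LPS+LA than with LPS. With 1 array per group the differences of neither gene were tested.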

How the results depend on the processing

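Under 8 alternatives (median scaling, a 75th percentile over probes bright on all arrays, quantile normalization, normexp, the authors' deposited table, dim probes kept, only probes above background on every array, and the mean over a gene's probes), all 18 called receptor values kept their sign and 15 kept their call. Both choices on dim probes left every receptor value as it was by construction, since each brightest probe was well above background on all 4 arrays. The probe mean likewise could not change Ccr1, Ccr2 and Ccrl2, which have 1 probe each. The counts also include probe means of Cx3cr1 that use its second probe with LPS, which was not well above background. The calls not kept were those of Ccr1 after normexp. They were -0.54 for LPS against Medium, 0.96 for LPS+LA against LPS and 0.66 for the change of the LA difference by LPS. Of 12 values short of 2-fold, 11 stayed so; Cx3cr1 for LPS+LA against LPS became 1.09 in the authors' table, and its probe mean, which includes a value not well above background, is not given. Values near 0 changed sign after normexp for LPS+LA against LA, Ccr2 to -0.08 and Cxcr4 to -0.03.

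The calls over all genes moved more. Normexp called 683 genes higher and 317 lower for LPS against Medium, against 1107 and 1019 as reported, 639 and 1109 for LPS+LA against LPS, against 1567 and 1698, and 72 and 165 for LA against Medium, against 454 and 484. For LPS+LA against LA it called 8 and 23, against 135 and 223, and for the change of the LA difference 419 and 721, against 1199 and 1297. It made the share of higher among called genes 68.3%, 36.6%, 30.4%, 25.8% and 36.8% in these comparisons, against 52.1%, 48.0%, 48.4%, 37.7% and 48.0%. In the authors' table the median of all genes lay at -0.24 for LPS against Medium and 0.43 for LPS+LA against LPS, with 740 higher and 1716 lower (30.1% higher) and 3043 and 923 (76.7%). There LA against Medium had 569 and 298 (65.6%), LPS+LA against LA 97 and 120, and the change of the LA difference 2017 and 847 (70.4%). The percentile over bright probes made the shares 41.0%, 61.0% and, for that change, 60.4%. Without a filter on dim probes, 2111 genes were higher and 2295 lower for LPS against Medium, 1861 and 1423 for LA against Medium, 2984 and 2732 for LPS+LA against LPS, 985 and 1369 for LPS+LA against LA, and 2813 and 3361 for the change. Only probes above background on every array left 87 and 134 for LPS+LA against LA. Of the gene lists, the ligands had 0 to 2 higher and 3 to 6 lower for LPS+LA against LPS under the alternatives, and Rarres2 was short of 2-fold after median scaling, normexp and quantile normalization. The other chemokine receptors had 5 lower for LPS against Medium and 5 higher for LPS+LA against LPS with dim probes kept, against 1 and 1. Neutrophil markers had 7 to 12 higher for LPS+LA against LPS, and migratory genes 10 to 12 lower. Signal over background limits dim probes, such as the second Cx3cr1 probe. No paired analysis was possible because each group has 1 array. A slide block could not be fitted for the same reason.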

Other observations

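The downstream genes of chemokine receptors were read as well, as G protein subunits, kinases, arrestins and Rgs proteins, which switch G proteins off. Of 25 measured for LPS against Medium, 2 were higher and 4 lower, with a median of -0.29, where 8.14% of all genes were higher and 7.50% lower. Under the alternatives 1 to 3 were higher and 2 to 6 lower. Rgs1 was highest at 2.56 and Pik3r5, a subunit of PI3K gamma, next at 1.02, and Arrb1, an arrestin that ends receptor signalling, and Rgs2 were lowest, both at -1.55. For LPS+LA against LPS 6 were higher and 3 lower (11.5% and 12.5% of all genes). The values ran from Rgs2 at 2.02 and Grk6, a receptor kinase, at 1.70 to Pik3r6 at -1.50 and Rgs1 at -2.80. LA against Medium had 2 higher, Rgs18 at 1.18 and Grk2 at 1.1, and 0 lower (3.12% and 3.33% of all genes). LPS+LA against LA had 0 in either direction, where 0.906% of all genes were higher and 1.50% lower.

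In the RefSeq gene order of chromosome 9, Ccr1 and Ccr2 lie near Cxcr6. For LPS against Medium, Ccr1 lay at -1.09, Ccr2 at -1.96 and Cxcr6 at 0.21, the last within 2-fold. Their levels with LPS+LA differed from those with LPS by 1.65, 2.64 and -0.91 in that order. Ccr3 lies between Ccr1 and Ccr2 and was not well above background with LPS. It was at least 1.06-fold lower with LPS than in Medium, and at least 1.19-fold higher with LPS+LA than with LPS. Cx3cr1 at -1.94 lies beside Ccr8 at 0.51. These neighbours were named after their values were seen.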
